A study of Mus musculus with 6 samples.

Results

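The genes described here are 10 transcription factor and cofactor genes of the erythroid (red cell) and megakaryocytic (platelet) lineages: Gfi1b, Gfi1, Gata1, Gata2, Klf1, Tal1, Zfpm1, Nfe2, Lyl1 and Lmo2. They were chosen by name out of 38926 genes in the table, with no measured value in the rule. Earlier results of these data were known at that point, so shares and medians over the 10 genes are a description. All 10 lay above the filter on low values that 11436 genes passed. RNA was sequenced from LSK cells, a bone marrow fraction that carries Sca-1 and Kit but no lineage markers, in which haematopoietic stem cells and multipotent progenitors are found. There were 3 DMSO libraries and 3 haloperidol libraries, all from C57BL/6 mice aged 8 to 12 weeks. Haloperidol is an antipsychotic drug that blocks dopamine receptors, and DMSO is its solvent. Either was injected on 3 consecutive days and also remained present during the sort, which started from collagenase-digested leg bones (femur and tibia). The dose is not given in the labels, and they do not say whether a library came from 1 mouse or from several, or whether replicates were separate mice. The p-values below therefore measure only how these samples spread, which may be technical. A sorting or sequencing day shared within a group cannot be told apart from the treatment.

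GATA factors bind DNA through zinc fingers, and in blood cells GATA2 acts in stem and early progenitor cells while GATA1 takes over during red cell and platelet development. TAL1, a basic helix-loop-helix factor, binds E-boxes with an E protein partner and is joined to GATA factors by the LIM protein LMO2, and FOG1, encoded by Zfpm1, is a cofactor of GATA1. GFI1 and GFI1B are related zinc finger repressors that recruit histone demethylase and deacetylase complexes. KLF1 activates globin and other red cell genes, and NF-E2 is needed for platelet formation.

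Gene-assigned reads, recovered from the step size of low FPKM values, numbered 8523556 to 8969024 per library. FPKM is the number of fragments scaled to transcript length and sequencing depth, and the deposited values had been scaled to the libraries' size factors. A count of 0 in a library of this depth limits a gene to 0.334 to 0.352 RPM (depth-scaled reads), an upper limit that covers counting error only. The genes that define the sort, Kit and Ly6a (Sca-1), did not pass the test (adjusted p = 0.396 and 0.861), and in the 6 libraries they lay between 69.8 and 96.3 FPKM and between 125 and 147 FPKM. The other markers measured for this fraction were called. The progenitor antigen genes Cd34 and Cd48 were lower in haloperidol (adjusted p = 0.0153 and 0.0353). Flt3, a receptor gene of multipotent progenitors, was higher, with an adjusted p (0.0484) close to the threshold of 0.05. How these calls fared under other processing settings is not reported here. The sum of the 5 markers was 1124 to 1189 FPKM in DMSO and 1038 to 1084 FPKM in haloperidol, with no overlap. Most of this sum was Cd34, at 619 to 665 FPKM in DMSO and 537 to 576 FPKM in haloperidol. Of all tested genes, 24.5% were called and 22.1% were lower in haloperidol without overlap. The part of these marker differences in the results below was not tested.

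All 10 genes had a lower mean in haloperidol, and 7 of them fell past the test: Gfi1b, Klf1, Lmo2, Tal1, Gata1, Gata2 and Gfi1. Zfpm1, Nfe2 and Lyl1 did not pass. A gene was called when its adjusted p in limma was below 0.05 over all 11436 tested genes, and 24.5% of those genes were called, 13.0% lower and 11.5% higher in haloperidol. Haloperidol libraries all lay under the DMSO libraries for 9 of the 10, Nfe2 being the exception, whereas 22.1% of tested genes were lower without overlap and 21.0% higher without overlap. The median log2 fold change, haloperidol minus DMSO on the log2(FPKM + 1) scale, was -0.47 over the 10 genes and 0.0022 over all tested genes, 49.6% of which lay below 0. In sorted bulk RNA, fewer cells of a type and less RNA per cell cannot be told apart.

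**Figure D1:**
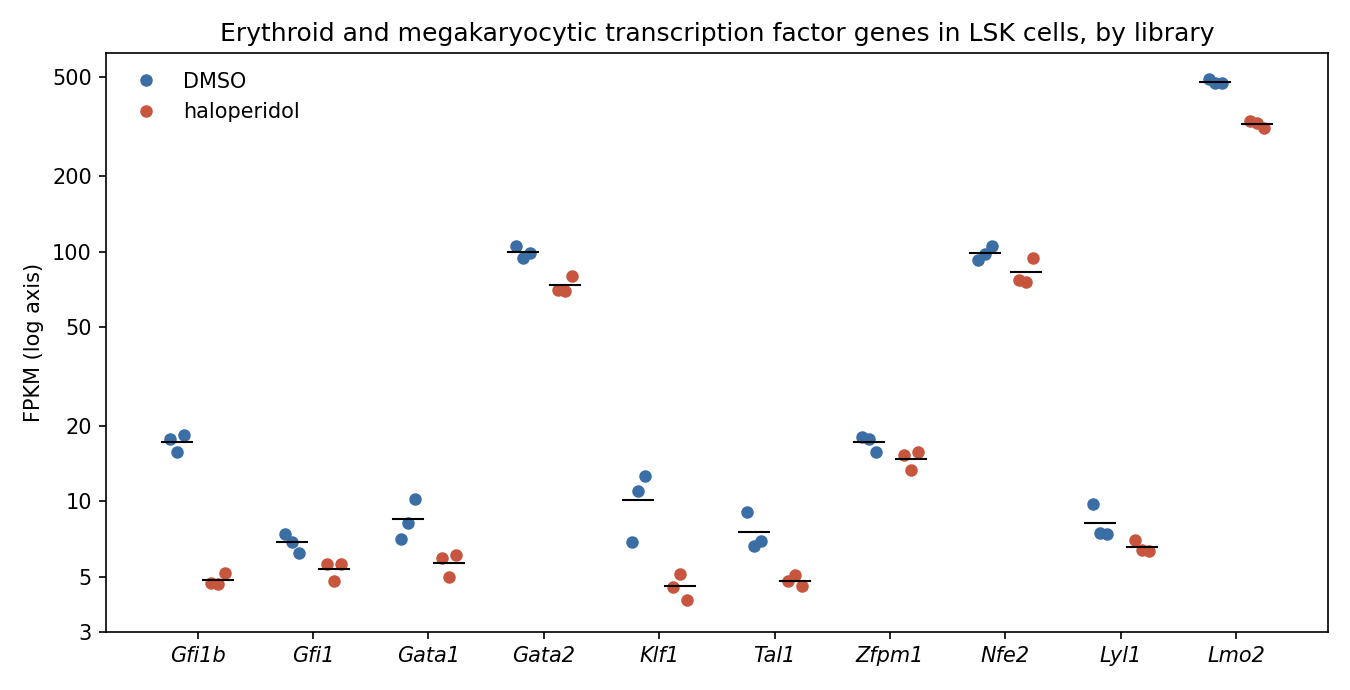
FPKM (log axis) of each of the 10 genes in the 3 DMSO and 3 haloperidol libraries, 1 point per library, with the group mean as a bar. Gfi1b drops from between 15.8 and 18.4 FPKM to between 4.67 and 5.15 FPKM, while the Nfe2 libraries of the groups overlap.

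The steepest fall among them was that of Gfi1b, the repressor needed for red cell and platelet development (ENSMUSG00000026815.14, chr2:28609450-28621982, minus strand, GRCm38). Its level was 17.8, 15.8 and 18.4 FPKM in DMSO replicates 1 to 3 and 4.70, 4.67 and 5.15 FPKM in the haloperidol replicates. Every haloperidol library lay far under every DMSO library, and the libraries within a group were close together. The mean went from 17.3 ± 1.37 to 4.84 ± 0.270 FPKM (SD, n = 3 each), 72.1% lower. The log2 fold change was -1.65 (SE 0.08, 95% interval -1.83 to -1.47, adjusted p = 2.15e-05), the 11th steepest fall among the 11436 tested genes. Behind these values stood 290, 251 and 304 reads in DMSO and 74, 76 and 84 reads in haloperidol.

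Its paralogue Gfi1, which restrains proliferation of stem cells and guides granulocyte development, had a smaller difference (chr5:107716657-107726036, minus strand). It was at 7.43, 6.88 and 6.22 FPKM in DMSO and at 5.62, 4.78 and 5.60 FPKM in haloperidol. The groups did not overlap, although the lowest DMSO library was only slightly above the highest haloperidol library. The mean went from 6.84 ± 0.606 to 5.34 ± 0.480 FPKM, and the log2 fold change was -0.31 (SE 0.09, 95% interval -0.52 to -0.09, adjusted p = 0.0447). This call ended without DMSO replicate 1 (adjusted p = 0.127) or 2 (0.116) and without haloperidol replicate 1 (0.0712), 2 (0.13) or 3 (0.0641). It also ended with no filter on low values (0.102), quantile normalization (0.0521) and upper quartile scaling (0.0651). Of its 3187 annotated exon bases, 101 are shared with the opposite-strand gene A430072P03Rik, which was between 0.483 and 1.21 FPKM, and these libraries keep no strand.

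The ratio of the paralogues did not overlap between the groups. Gfi1b was 2.39, 2.29 and 2.96 times the Gfi1 level in the DMSO libraries, per length, and 0.836, 0.977 and 0.920 times that level in the haloperidol libraries. Gfi1b was the more abundant of the pair in every DMSO library and the less abundant in every haloperidol library. On the log2 scale the ratio went from 1.34 ± 0.20 to -0.14 ± 0.11 (SD, n = 3 each), a difference of -1.48 (two-sided exact permutation test, p = 0.10, the smallest that 3 libraries against 3 can give, and 0.15 with Benjamini-Hochberg adjustment over the 3 ratios tested).

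**Figure D2:**
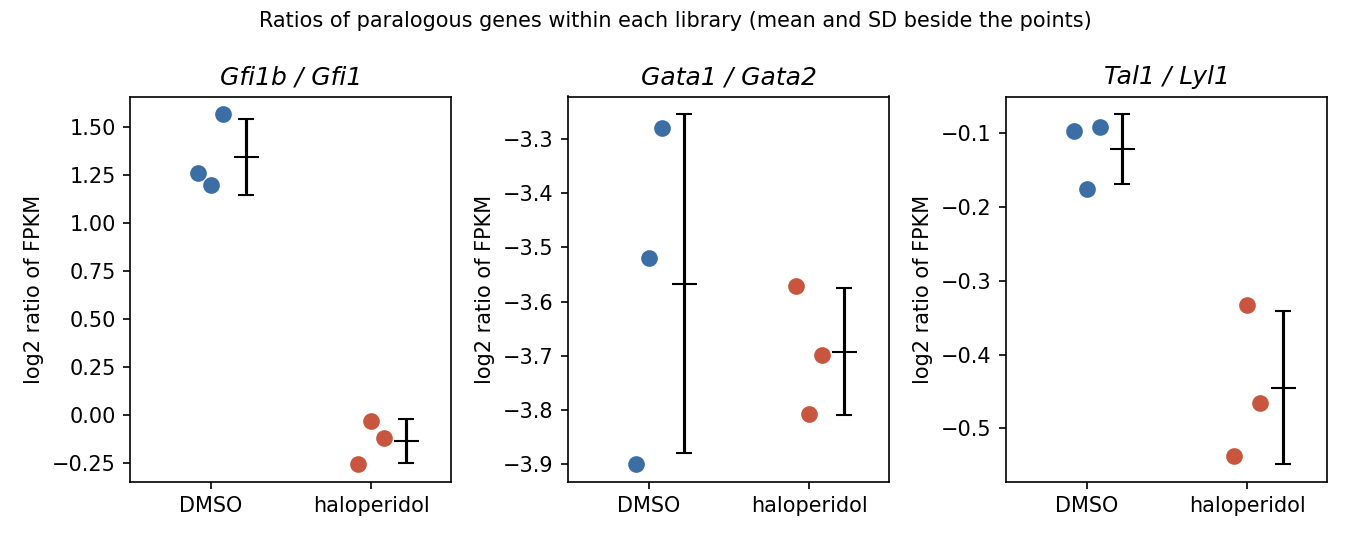
Log2 ratio of FPKM in each library for the pairs Gfi1b to Gfi1, Gata1 to Gata2 and Tal1 to Lyl1, with DMSO and haloperidol libraries as points and the group mean and SD drawn beside them on an axis of its own for each pair. The Gfi1b to Gfi1 ratio lies between 1.20 and 1.57 in DMSO and between -0.26 and -0.03 in haloperidol.

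Klf1, the activator of globin and other late red cell genes, fell to under the lowest DMSO library in every haloperidol library (chr8:84901928-84905291, plus strand). Its level was 6.87, 11.0 and 12.6 FPKM in DMSO and 4.55, 5.13 and 4.03 FPKM in haloperidol. The DMSO libraries were widely spread, replicate 1 being the lowest. The mean went from 10.2 ± 2.97 to 4.57 ± 0.554 FPKM, 55.0% lower, with a log2 fold change of -0.97 (SE 0.19, 95% interval -1.39 to -0.55, adjusted p = 0.00717). The libraries held 94, 146 and 175 Klf1 reads in DMSO and 60, 70 and 55 in haloperidol.

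Among the GATA genes, Gata2 was the more abundant and Gata1 the less abundant in every library. Gata2, a factor of stem and early progenitor cells, was at 105, 94.2 and 98.9 FPKM in DMSO and at 70.3, 69.7 and 79.5 FPKM in haloperidol (chr6:88193891-88207032, plus strand). The groups were separate, and the mean went from 99.4 ± 5.49 to 73.2 ± 5.48 FPKM (n = 3 each). The log2 fold change was -0.44 (SE 0.07, 95% interval -0.59 to -0.29, adjusted p = 0.00255). The length behind the deposited Gata2 level was 3351 bases where GENCODE M21 lists 5398 exon bases, so its level beside other genes depends on the annotation while its fold change does not.

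Gata1, the principal factor of red cell and platelet maturation, was at 7.04, 8.22 and 10.2 FPKM in DMSO and at 5.91, 4.98 and 6.12 FPKM in haloperidol (chrX:7959260-7978071, minus strand). The groups did not overlap, and DMSO replicate 3 was the highest of the 6. The mean went from 8.48 ± 1.59 to 5.67 ± 0.607 FPKM, and the log2 fold change was -0.50 (SE 0.13, 95% interval -0.79 to -0.21, adjusted p = 0.0236). This call ended without DMSO replicate 2 (adjusted p = 0.0618) or 3 (0.0626), without haloperidol replicate 1 (0.0514) or 2 (0.0705), and with no filter on low values (0.0785).

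The log2 ratio of Gata1 to Gata2 was -3.57 ± 0.31 in DMSO and -3.69 ± 0.12 in haloperidol. The difference of -0.13 did not pass a two-sided exact permutation test (p = 0.6, adjusted over the 3 ratios 0.6, n = 3 each), which does not show that the ratios were the same, and without DMSO replicate 3 it was 0.018.

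The gene of the GATA1 cofactor FOG1, Zfpm1, was at 18.2, 17.7 and 15.8 FPKM in DMSO and at 15.4, 13.4 and 15.7 FPKM in haloperidol (chr8:122282141-122337251, plus strand). The groups did not overlap, with the lowest DMSO and highest haloperidol library almost level. The means were 17.2 ± 1.24 and 14.8 ± 1.29 FPKM, a log2 difference of -0.21 that did not pass the test (95% interval -0.39 to -0.02, adjusted p = 0.103).

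Tal1, a master regulator of blood formation that partners E proteins, was at 9.09, 6.63 and 6.94 FPKM in DMSO and at 4.80, 5.06 and 4.56 FPKM in haloperidol (chr4:115056426-115071755, plus strand). All haloperidol libraries lay under all DMSO libraries, and DMSO replicate 1 was the highest. The mean went from 7.55 ± 1.34 to 4.81 ± 0.248 FPKM, and the log2 fold change was -0.55 (SE 0.11, 95% interval -0.81 to -0.29, adjusted p = 0.0104).

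Lyl1, the close relative of Tal1, was at 9.72, 7.48 and 7.39 FPKM in DMSO and at 6.97, 6.37 and 6.30 FPKM in haloperidol (chr8:84701457-84704715, plus strand). Its groups did not overlap, and DMSO replicate 1 was again the highest. The means were 8.20 ± 1.32 and 6.55 ± 0.370 FPKM, and the log2 difference of -0.28 did not pass the test (95% interval -0.52 to -0.03, adjusted p = 0.0928). The log2 ratio of Tal1 to Lyl1 was -0.12 ± 0.05 in DMSO and -0.45 ± 0.10 in haloperidol, with every haloperidol library under every DMSO library. Lyl1 shares 4 exon bases with the opposite-strand gene Nfix, which was at 13.0 to 17.2 FPKM. The difference of -0.32 between the ratios gave p = 0.10 in the two-sided exact permutation test (n = 3 each), again the smallest possible, and 0.15 adjusted over the 3 ratios.

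Lmo2, whose LIM protein bridges TAL1 and GATA factors, was the most abundant of the 10 in every library (chr2:103957986-103981878, plus strand). It was at 490, 472 and 473 FPKM in DMSO and at 332, 326 and 311 FPKM in haloperidol. The libraries within a group lay close together and the groups were wide apart. The mean went from 478 ± 10.4 to 323 ± 10.5 FPKM, 32.5% lower, a log2 fold change of -0.57 (SE 0.05, 95% interval -0.67 to -0.46, adjusted p = 1.42e-04). It rested on 8872 to 9473 reads per DMSO library and 6004 to 6270 per haloperidol library.

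Nfe2, the large subunit gene of the NF-E2 factor of platelet production, was at 92.1, 97.3 and 105 FPKM in DMSO and at 77.2, 75.8 and 94.4 FPKM in haloperidol (chr15:103248212-103258403, minus strand). Haloperidol replicate 3 lay above DMSO replicate 1, so these groups overlapped. The means were 98.3 ± 6.71 and 82.5 ± 10.3 FPKM, a log2 difference of -0.25 that did not pass the test (95% interval -0.46 to -0.05, adjusted p = 0.0688). Without haloperidol replicate 3 it passed (log2 fold change -0.35, adjusted p = 0.0107). It passed also with a filter at 5 FPKM (0.0417), quantile normalization (0.0313), rescaling to a common sum (0.0404) and voom on recovered reads (0.0151), the last chosen after seeing the data.

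**Figure D3:**
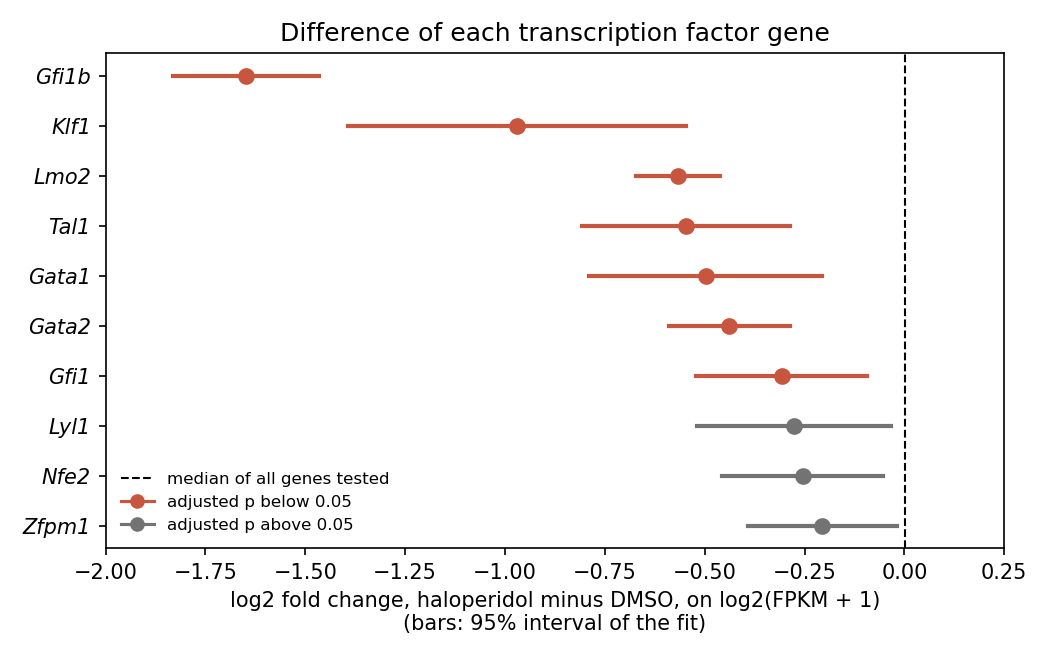
Log2 fold change of each of the 10 genes, haloperidol minus DMSO on the log2(FPKM + 1) scale, with 95% intervals as bars, red for genes past the test and grey for the others, and a dashed line at the median of all tested genes. All 10 lie below 0, from -1.65 for Gfi1b to -0.21 for Zfpm1.

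The order of levels per length also shifted. In DMSO, Lmo2 was highest, followed by Gata2 and Nfe2, which did not differ beyond their spread, and then by Gfi1b and Zfpm1, which did not either. Klf1, Gata1, Lyl1, Tal1 and Gfi1 came last, and the ranges of neighbours in that order overlapped. In haloperidol, Lmo2 was again first, Nfe2 and Gata2 followed with overlapping ranges, and Zfpm1 and then Lyl1 came next with no overlap. Gata1, Gfi1, Gfi1b, Tal1 and Klf1 came last, each overlapping its neighbour, so Gfi1b had moved from beside Zfpm1 into the lowest set.

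Promoter windows were read from RefSeq for GRCm38.p6, from 250 bases before to 50 bases after a transcript start. There were 11 windows for 8 of the 10 genes, and Nfe2 and Lmo2 had none. Those of Gfi1b, Klf1 and Tal1 are shown because these genes fell steeply and theirs are the 3 windows of the 11 with a GATA motif, meaning AGATAA or AGATAG or TGATAA or TGATAG on either strand. Such a motif was in 29.8% of 32851 promoter windows of that length. Capitals mark GATA motifs and the core letters AATC of the GFI1 and GFI1B motif on either strand, which do not overlap here. The windows are chr2:28621933-28622232 on the minus strand, chr8:84901732-84902031 on the plus strand and chr4:115056176-115056475 on the plus strand, in that order.
Gfi1b: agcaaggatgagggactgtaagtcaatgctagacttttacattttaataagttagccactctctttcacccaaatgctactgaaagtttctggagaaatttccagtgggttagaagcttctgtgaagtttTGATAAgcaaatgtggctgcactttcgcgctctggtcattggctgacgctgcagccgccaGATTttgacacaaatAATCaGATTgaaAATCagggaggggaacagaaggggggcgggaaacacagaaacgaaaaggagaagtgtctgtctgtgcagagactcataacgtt
Klf1: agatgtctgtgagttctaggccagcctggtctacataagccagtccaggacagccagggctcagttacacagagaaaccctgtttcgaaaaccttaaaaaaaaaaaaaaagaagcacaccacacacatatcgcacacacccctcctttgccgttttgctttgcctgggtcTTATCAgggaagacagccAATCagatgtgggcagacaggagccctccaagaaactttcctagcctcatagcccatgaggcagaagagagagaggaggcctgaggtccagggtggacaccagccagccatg
Tal1: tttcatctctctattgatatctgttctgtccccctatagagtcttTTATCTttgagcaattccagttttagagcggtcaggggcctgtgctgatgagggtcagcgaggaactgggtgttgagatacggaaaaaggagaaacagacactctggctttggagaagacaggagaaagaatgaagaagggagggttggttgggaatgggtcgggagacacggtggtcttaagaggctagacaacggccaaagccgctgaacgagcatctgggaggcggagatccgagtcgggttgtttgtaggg

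The Gfi1b window held 1 GATA motif, from position -120 to -115 before the start, and 4 copies of AATC, beginning at -60, -45, -40 and -33. At least 4 copies were found in 10.1% of all windows, while at least 1 was found in 73.1%. Of the 11 windows of these genes, 5 held at least 1 copy. The other Tal1 window, which is not shown, also held 4 copies. In the Klf1 window the GATA motif lay from -80 to -75, read on the other strand, with 1 AATC at -62 and 1 E-box (CAGNTG) from -59 to -54. In the Tal1 window it lay from -205 to -200, also on the other strand. Among the 11 windows, 5 held an E-box, as did 51.4% of all windows. The KLF motif CCNCNCCC was in 9 and in 49.5% of all windows, and the NF-E2 core TGANTCA in 0 and in 7.81% of all windows. These are matches of letters, and binding was not measured.

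Of 15 tested partner genes of the GATA1, TAL1 and LMO2 complex, 4 fell (26.7%) and 1 rose (6.67%), beside 13.0% and 11.5% of all tested genes, with a median log2 fold change of -0.11 beside 0.0022 for all tested genes. Cbfa2t3, which encodes the corepressor ETO2 of that complex, fell the most, from 21.2, 18.0 and 16.6 FPKM in DMSO to 6.65, 5.61 and 6.39 FPKM in haloperidol. The groups were wide apart, and the log2 fold change was -1.44 (SE 0.10, adjusted p = 7.36e-05). The ETS factor gene Fli1, which acts in megakaryocytes and stem cells, fell from 49.3 ± 1.34 to 34.4 ± 2.22 FPKM, and the E protein gene Tcf4 from 15.3 ± 1.02 to 11.1 ± 0.781 FPKM. Erg, an ETS factor gene like Fli1, fell from 9.36 ± 0.831 to 7.08 ± 0.496 FPKM (adjusted p = 0.0189), a call that ended without DMSO replicate 1 (0.0598) or 2 (0.0725), without haloperidol replicate 2 (0.0614) and with no filter on low values (0.0504). Cbfb, the common partner of RUNX factors, was at 113 and 110 FPKM (adjusted p = 0.647). The gene that rose was the LIM-only gene Lmo4, named after its value was seen, from 5.70 ± 1.29 to 8.46 ± 1.10 FPKM (adjusted p = 0.0352). The Lmo4 call ended without DMSO replicate 2 (0.0856) or 3 (0.0908), without haloperidol replicate 1 (0.111) or 3 (0.0787) and with no filter on low values (0.109).

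The 14 tested corepressor genes of GFI1 and GFI1B include those of histone demethylases, deacetylases, methyltransferases and scaffolds. Among the 14, limma called 2 lower (14.3%, near the 13.0% of all tested genes) and 0 higher, and the median log2 fold change was -0.03. At an unadjusted p below 0.05 it had 4 lower and 0 higher, and voom called 3 and 0. The deacetylase gene Hdac1 fell from 62.1 ± 0.671 to 54.5 ± 1.31 FPKM (adjusted p = 0.0211). That call ended without DMSO replicate 2 (0.0764) or 3 (0.0526) and without haloperidol replicate 2 (0.0638) or 3 (0.0521). The scaffold gene Rcor1 fell from 24.6 ± 1.16 to 21.6 ± 0.161 FPKM (adjusted p = 0.0484), a call that ended in 11 of 16 alternatives, including every one that left out a library (0.0531 to 0.129). Hdac2, at 65.0 and 55.5 FPKM, did not pass (adjusted p = 0.0739), though it did in 3 of 16 alternatives (without DMSO replicate 1, 0.0200; voom on recovered reads, 0.0216; a filter at 5 FPKM, 0.0492).

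The genes of 3 inhibitors of E proteins rose. Of 10 tested genes for E protein inhibitors, small Maf and BACH proteins and relatives of Nfe2, 3 rose and 2 fell. The shares over all tested genes were 11.5% and 13.0%, and the median log2 fold change of the list was -0.05. The inhibitor genes were Id1, Id3 and Id2, whose proteins block E proteins from binding DNA. Id1 was at 44.8, 41.3 and 43.5 FPKM in DMSO and at 69.1, 70.0 and 86.2 FPKM in haloperidol, with no overlap, a log2 fold change of 0.78 (adjusted p = 5.85e-04). Id3 rose from 60.7 ± 3.38 to 90.4 ± 9.34 FPKM and Id2 from 10.4 ± 0.606 to 15.1 ± 1.98 FPKM. Maff, a small Maf gene, fell from 21.8 ± 3.06 to 13.7 ± 1.08 FPKM. Nfe2l2, a relative of Nfe2 that responds to oxidative stress, fell from 88.0 ± 4.92 to 69.6 ± 7.08 FPKM (adjusted p = 0.0146), a call that ended without DMSO replicate 3 (0.0515), without haloperidol replicate 1 (0.0518) and with no filter on low values (0.0501).

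Of 19 other transcription factor genes of these lineages, 3 fell (15.8%) and 1 rose (5.26%). Together 21.1% were called, near the 24.5% of all tested genes, with a median log2 fold change of -0.08. Myb, which keeps progenitors dividing, was at 129, 146 and 137 FPKM in DMSO and at 88.5, 79.9 and 73.8 FPKM in haloperidol. The groups were far apart, and the log2 fold change was -0.76 (SE 0.07) with an adjusted p of 3.57e-04. The globin repressor gene Bcl11a fell from 8.70 ± 0.370 to 5.23 ± 0.332 FPKM and Mef2c, a factor of megakaryocytes and lymphoid cells, from 48.1 ± 1.60 to 40.3 ± 1.98 FPKM. Klf3 rose from 33.9 ± 1.34 to 40.1 ± 3.37 FPKM (adjusted p = 0.0387). That call ended without DMSO replicate 1 (0.0909), 2 (0.0632) or 3 (0.111), without haloperidol replicate 2 (0.0604) or 3 (0.0870) and with no filter on low values (0.0833).

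Of 23 tested genes that GATA1 and KLF1 activate in red cells, 4 fell, 1 rose and 18 did not pass. The share called was 21.7%, near the 24.5% of all tested genes, and their median log2 fold change was 0.05. Car2, a carbonic anhydrase of red cells, was at 812, 845 and 871 FPKM in DMSO and at 589, 556 and 539 FPKM in haloperidol. The groups were far apart, and the log2 fold change was -0.59 (SE 0.05) with an adjusted p of 2.24e-04. The haem synthesis gene Uros fell from 5.82 ± 0.462 to 3.97 ± 0.315 FPKM and Trim10, a gene of maturing red cells, from 9.02 ± 1.87 to 4.90 ± 1.28 FPKM (adjusted p = 0.0136, but 0.0580 with no filter on low values). The transferrin receptor gene Tfrc, the fourth, was named after its value was seen and fell from 16.2 ± 1.18 to 12.7 ± 1.30 FPKM (adjusted p = 0.0267). This call ended without DMSO replicate 2 (0.0949) or 3 (0.0554), without haloperidol replicate 1 (0.0735) or 3 (0.0731) and with no filter on low values (0.0691). Fech, which inserts iron into haem, rose from 45.2 ± 2.14 to 53.8 ± 3.01 FPKM (adjusted p = 0.0199). The Fech call ended without DMSO replicate 1 (0.0622) or 3 (0.0599) and without haloperidol replicate 1 (0.0592) or 2 (0.0661). The beta globin gene Hbb-bs was at 1489 ± 188 and 1904 ± 265 FPKM (adjusted p = 0.0589), and it passed in 6 of 16 alternatives. Among these it was at 0.0321 without haloperidol replicate 1, and the lowest adjusted p was 0.0054, with voom.

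Of 17 tested genes that GATA1, FLI1 and NF-E2 activate in megakaryocytes, 4 fell (23.5%) and 3 rose (17.6%), beside 13.0% and 11.5% of all tested genes (median log2 fold change -0.06). The platelet integrin gene Itga2b rose from 19.1, 19.7 and 17.5 FPKM in DMSO to 46.9, 40.1 and 47.4 FPKM in haloperidol. Every haloperidol library was above every DMSO library, and the log2 fold change was 1.21 (SE 0.08) with an adjusted p of 5.44e-05. Its partner subunit Itgb3 rose from 1.69 ± 0.0918 to 4.82 ± 1.16 FPKM, and its log2 fold change was 1.09. Plek, a platelet signalling protein gene, fell from 118 ± 3.12 to 83.0 ± 1.38 FPKM and the multimerin gene Mmrn1 from 23.3 ± 2.51 to 14.7 ± 1.16 FPKM. Also past the test, and named after their values were seen, were the P-selectin gene Selp, higher in haloperidol at 17.3 ± 3.36 against 11.8 ± 0.736 FPKM, and Tbxas1, lower at 9.95 ± 0.119 against 12.5 ± 0.843 FPKM. The call for Selp ended without DMSO replicate 2 (adjusted p = 0.0676) or when low genes were not filtered (0.0687), and the Tbxas1 call without DMSO replicate 2 (0.0558) or 3 (0.0550).

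Of 16 tested genes that GFI1 or GFI1B is reported to repress, 5 fell (31.3%), 1 rose (6.25%) and 10 did not pass, beside 13.0% lower and 11.5% higher over all tested genes, with a median log2 fold change of -0.11. Rgs18, a regulator of platelet G protein signalling, was at 118, 127 and 131 FPKM in DMSO and at 80.7, 79.7 and 79.2 FPKM in haloperidol. The groups were separate, and the log2 fold change was -0.64 (SE 0.05) with an adjusted p of 1.47e-04. The myeloid factor genes Irf8 and Spi1 went down, from 13.0 ± 0.255 to 6.89 ± 0.907 FPKM and from 144 ± 5.41 to 102 ± 7.48 FPKM, and the stem cell factor gene Meis1 fell from 27.7 ± 0.897 to 18.8 ± 1.28 FPKM. Bcl2l1, the gene of the survival protein BCL-XL, fell from 9.51 ± 0.372 to 7.02 ± 0.550 FPKM and was named after its value was seen. The cell cycle inhibitor gene Cdkn1a was at 443 and 483 FPKM (adjusted p = 0.390). The gene that rose was Id2, given above.

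**Figure D4:**
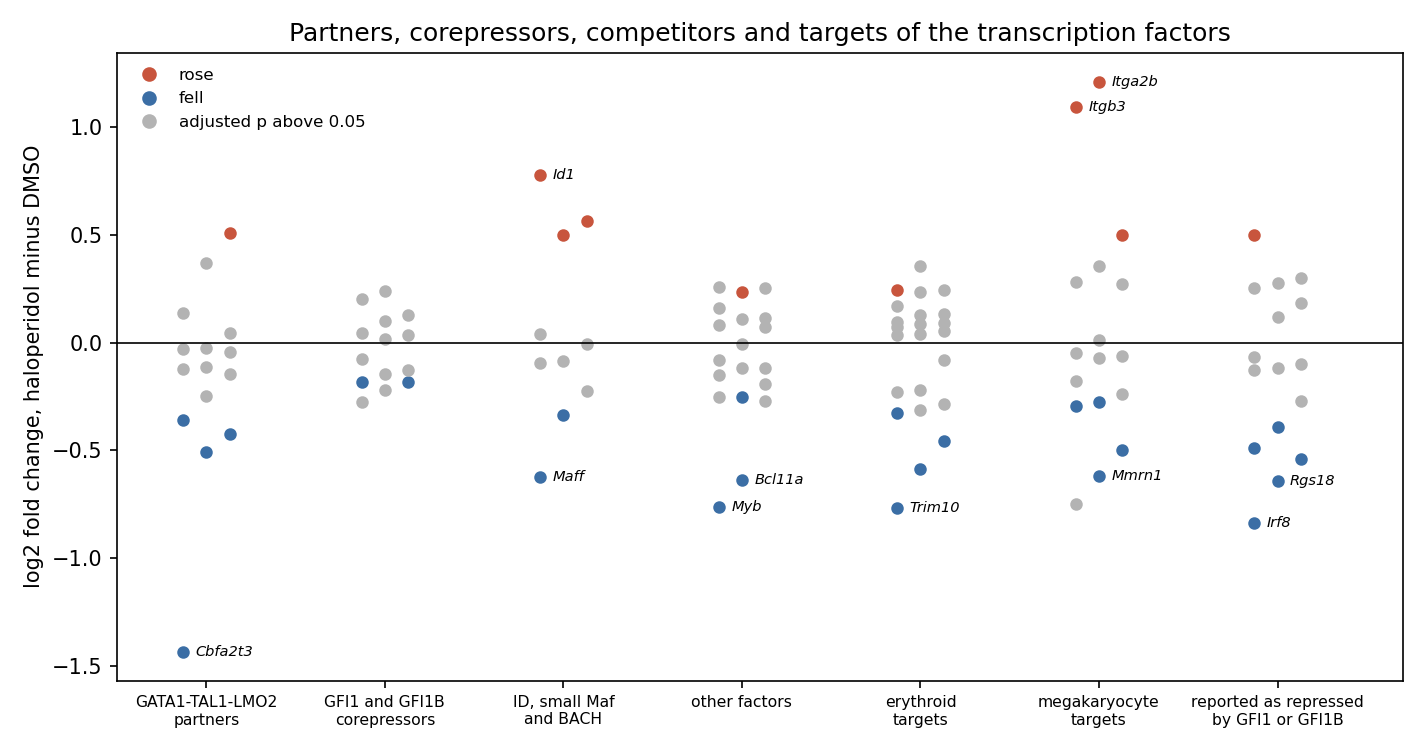
Log2 fold change, haloperidol minus DMSO on the log2(FPKM + 1) scale, of each tested gene in the 7 lists, 1 point per gene, red where it rose past the test, blue where it fell and grey otherwise, with called genes named where the value passes 0.6 in either direction. Points of each list lie on both sides of 0, and Cbfa2t3 (-1.44) and Itga2b (1.21) lie farthest from 0.

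Over the 7 lists, which hold 111 different tested genes, 24 genes fell (21.6%) and 9 rose (8.11%), beside 13.0% and 11.5% of all tested genes. The lists were written with earlier results of these data known, so their shares are a description.

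Markers of other cells that such a sort can hold were measured beside these genes. Mature red cell markers, 7 of 8 in the table and all above 0, summed to between 3593 and 4762 FPKM in DMSO and between 4161 and 5496 FPKM in haloperidol, and limma called 0 of 7 (1 higher at an unadjusted p below 0.05, and 1 higher by voom). The summed level of 6 megakaryocyte and platelet markers was 67.1 to 71.5 FPKM in DMSO and 65.7 to 72.1 FPKM in haloperidol, with 0 of the 5 tested called by limma (1 higher and 1 lower at an unadjusted p below 0.05, and 1 lower by voom). Markers of erythroid and megakaryocyte progenitors summed to 285 to 356 and 312 to 320 FPKM, with 1 of 6 higher (Itga2b) and 1 lower. The ranges of the groups overlapped for each of these 3 sums.

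The sum for mast cells and basophils, in which GATA2 also acts, was 44.6 to 51.7 FPKM in DMSO and 77.8 to 101 FPKM in haloperidol. Of its 6 markers 3 were tested and 2 rose, Cpa3 and Mcpt8, beside 11.5% of all tested genes. B cell markers summed to 34.6 to 36.2 and 22.4 to 25.0 FPKM, and Pax5 was at or near 0 in every library. Both tested B cell genes (Cd79a and Cd79b) were lower, beside 13.0% of all tested genes. The mast cell and B cell sums differed between the groups without overlap. Of all tested genes taken singly, 21.0% were higher and 22.1% lower without overlap. The part of these 2 sums in the results on the 10 genes was not tested. Of the tested neutrophil, macrophage, and T and NK cell markers limma called 0, with 0 at an unadjusted p below 0.05 and 0 by voom, and Cd8a was at 0 in all libraries.

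The genes with the most similar pattern to each called transcription factor were found by the root mean square difference of log2(FPKM + 1), centred per gene, over the 6 libraries. For Gfi1b these were Il21r (0.12), a cytokine receptor gene, Areg (0.13), a ligand gene of the epidermal growth factor receptor, and the syndecan gene Sdc1 (0.15). For Klf1 they were Gbp8 (0.07), Il1a (0.16) and Tfec (0.16), and for Gata1 Slfn2 (0.05), Pim1 (0.06) and Plk1s1 (0.07). Those of Lmo2 were Tbc1d31, Cd99l2 and Lims1, at 0.02 to 0.03, and those of Gata2 were Tgif1, Map1lc3a and Fosl1, at 0.03 to 0.04. Tal1 was matched most closely by C1qc, Tceal1 and Cdk11b (0.04 to 0.07) and Gfi1 by Anapc10, Top1 and Clcf1 (0.04 each). These genes were picked for their measured pattern, so their values are a description. The closest gene was farther away for Gfi1b than for any other of the 7.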

How the data were processed

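RNA was measured in 3 DMSO and 3 haloperidol libraries. Per the labels' protocols, SMART-Seq cDNA was turned into Nextera libraries, so no strand is kept. HTSeq 0.6.1, TopHat2 2.1.1, DESeq2 1.18.1 and the build mm10 are listed in the submitters' processing notes, with no order or role. Counting options, in the sources used here, are not given. For 38926 genes the authors deposited FPKM values, which the low values show to be whole reads (100.0% of genes above 0, within 0.001 reads) divided by gene length and median-of-ratios size factors.

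The 11436 genes whose mean over the 6 libraries reached 1 FPKM were tested with limma 3.58.1 in R 4.3.3 on log2(FPKM + 1), with a trend in the prior variance, no covariate, two-sided, and Benjamini-Hochberg adjustment over all tested genes at 0.05. Fold changes on that scale understate the change of low genes. Ratios used exact permutation tests, and 3 were computed. Gene positions are those of GENCODE M21 (GRCm38, the same build as mm10), and 7 of the 10 genes had the exon length found there. The alternatives were other pseudocounts (0.1 and 0.01), filters, scalings, a robust prior, a replicate block, each library left out and, added after seeing the data, voom on recovered reads.

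The 10 genes and the lists were chosen with earlier results of these data known. Named list genes are up to 4 with the smallest p and the most abundant in DMSO, and some of these are not reported here.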

Additional observations from a re-analysis of the deposited data

How the results depend on the processing

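Gfi1b, Klf1, Lmo2, Tal1 and Gata2 kept their direction and call in all 16 alternatives, and Zfpm1 and Lyl1 passed in 0 of them. All 10 genes stayed lower in each. The labels do not say whether a replicate number marks a shared mouse, day or batch. Over all tested genes, same-numbered libraries deviated from their group means together with r of 0.0095, 0.055 and 0.020. Not every library correlated best with its own number. With 3 libraries per group, these values cannot decide whether the numbers pair the libraries. With the replicate block the Gfi1 call ended (adjusted p = 0.0635) and Nfe2 passed (0.0214), while the calls of Rcor1 (0.0693) and Klf3 (0.0617) ended and Hbb-bs passed (0.0473). The number of all genes called higher was 1320, against 848 with no filter and 817 to 985 with a library left out, 817 without DMSO replicate 2 and 864 without haloperidol replicate 1. Voom on recovered reads called 1584 higher and 1749 lower, beside 1320 and 1487. The Gata1 to Gata2 difference ran from -0.29 to 0.018 with a library left out, turning positive without DMSO replicate 3.

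Counts within the lists moved by more than 1.5 times as follows. With no filter on low values, 0 partners and 0 other transcription factors rose. In that setting 1 corepressor, 1 gene on the list with E protein inhibitors and 2 erythroid targets fell. With the replicate block, 2 partners, 0 other factors, 2 erythroid targets and 2 genes reported as repressed rose, and 1 corepressor fell. With quantile normalization or upper quartile scaling, 2 other factors, 3 erythroid targets and 2 repressed genes rose and 1 corepressor fell. The robust prior gave 2, 1 and 2 for other factors higher, corepressors lower and repressed genes higher. A filter at 5 FPKM gave 2 other factors, 2 erythroid targets and 2 repressed genes higher, and voom gave 3, 2 and 2, with 2 partners higher. With a library left out, 0 to 1 partners, 0 to 1 other factors, 0 to 1 erythroid targets and 1 to 2 repressed genes rose. In those fits 0 to 2 corepressors and 1 to 2 genes on the list with E protein inhibitors fell.

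Scaling alternatives moved the median of all genes by under 0.1 on the log2 scale. The fewest reads stood behind Klf1, 55 to 175 per library. The cause of these shifts was not tested.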

Other observations

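Libraries of the same group differed in these genes, as measured by each library's level in percent of its group mean. These genes were picked after their values were seen. In DMSO replicate 1, Klf1 was at 67.6%, Gata1 at 83.0%, the carbonic anhydrase gene Car1 at 63.1% and the erythropoietin receptor gene Epor at 75.2%. The beta globin gene Hbb-bs was not low there, at 1574 FPKM beside a group mean of 1489 FPKM, and Tal1 (120%) and Lyl1 (119%) were high in that library. DMSO replicate 3 was the highest of its group for Gata1 (120%), Klf1 (125%), Car1 (136%) and Epor (118%). Among the haloperidol libraries, replicate 3 was the lowest for Klf1 (88.1%), Car1 (88.8%) and Epor (87.3%), while Gata1 (108%) and Nfe2 (114%) were highest there.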
